A study of Mus musculus with 18 samples.

Results

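The 37 genes described here mark microglia, the resident macrophages of the brain, and were followed through whole cerebellum of 2 mouse genotypes at 3 ages. They are 21 identity genes, which resting microglia carry, and 16 activation genes, which microglia take on around damage and degeneration. Each gene was found as 1 row of a table of 22783 genes, by its symbol, and all 37 were present. Levels are in FPKM, a fragment count divided by transcript length and library size, so they can be compared between genes. Differences are given on the log2(FPKM + 1) scale, which understates the change of genes at a low level.

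The animals were FVB mice. The first genotype, ATXN1[30Q]D776/Cck-/-, has a transgene encoding ataxin-1 and is called transgenic below. Ataxin-1 with an expanded glutamine tract causes spinocerebellar ataxia type 1. The bracket in the label gives the length of that tract in the transgene, which is not an expanded one. The letter D after it stands for aspartate at the numbered position. The second, Cck-/-, is labelled as lacking the cholecystokinin gene on both chromosomes, which the transgenic mice are labelled to lack as well. Each genotype was sampled at weeks 5, 12 and 28 with 3 libraries an age, 18 in all. It is not stated whether these 3 are different animals. Within each group Xist exceeded Ddx3y, a Y-linked gene, in some libraries and not in others. The 3 thus cannot all come from a single animal. The p-values measure the spread between libraries, and how much of it is technical is not known. The labels do not name the promoter of the transgene either. The line is known in the field as one in which a Pcp2 promoter drives ataxin-1 in Purkinje cells.

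Microglia hold their resting state through purinergic, chemokine and growth factor receptors at the surface: P2ry12 and P2ry13 sense nucleotides, Cx3cr1 the neuronal chemokine fractalkine, and Csf1r the factors CSF1 and IL-34 that keep the cells alive. Trem2 is a lipid-sensing receptor that signals through the adaptor Tyrobp, and in mouse models of Alzheimer's disease it is needed for the change of microglia to a state in which Clec7a, Cst7, Itgax, Lpl, Axl and Spp1 rise. Microglia are also the main brain source of C1q, the first component of complement, and of the lysosomal protease cathepsin S, encoded by Ctss. In the cerebellum they lie among Purkinje cells and white matter. PU.1, the transcription factor encoded by Spi1, binds purine-rich sites at many of their genes.

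RefSeq promoters (GRCm38.p6) were at hand for 29 of the 37 members, as windows from 250 bases before to 50 after the transcription start. The 6 letters GAGGAA, a form of the PU.1 box, or their reverse TTCCTC, were in the windows of 17 of these 29 members (58.6%), against 8446 of all 27025 genes with a window (31.3%). They were in 11 of 15 identity and 6 of 14 activation members with a window. A match of these letters describes the sequence and does not show that PU.1 binds there. The 250 bases before the start are shown for 4 members that rose at week 28, 2 identity and 2 activation genes, 5′ to 3′ on the gene's own strand, with the motif in capitals. Trem2 lies on the plus strand (chr17:48346151-48346400), Ctss on the plus strand (chr3:95526536-95526785), Clec7a on the minus strand (chr6:129472780-129473029) and Cd68 on the minus strand (chr11:69666171-69666420).
Trem2: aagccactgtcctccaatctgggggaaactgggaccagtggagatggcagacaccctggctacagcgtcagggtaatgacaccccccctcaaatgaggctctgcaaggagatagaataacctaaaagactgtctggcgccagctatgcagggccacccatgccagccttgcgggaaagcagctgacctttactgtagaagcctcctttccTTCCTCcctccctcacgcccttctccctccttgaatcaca
Ctss: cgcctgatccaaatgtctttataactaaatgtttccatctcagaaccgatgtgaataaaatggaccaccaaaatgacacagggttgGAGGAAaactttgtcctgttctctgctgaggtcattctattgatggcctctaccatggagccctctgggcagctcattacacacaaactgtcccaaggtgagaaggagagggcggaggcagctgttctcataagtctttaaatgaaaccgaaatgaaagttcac
Clec7a: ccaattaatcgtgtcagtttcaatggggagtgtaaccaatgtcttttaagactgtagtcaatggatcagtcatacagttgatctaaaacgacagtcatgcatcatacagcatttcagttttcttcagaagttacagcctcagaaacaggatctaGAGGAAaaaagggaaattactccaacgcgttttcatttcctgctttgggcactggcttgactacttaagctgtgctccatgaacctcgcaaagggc
Cd68: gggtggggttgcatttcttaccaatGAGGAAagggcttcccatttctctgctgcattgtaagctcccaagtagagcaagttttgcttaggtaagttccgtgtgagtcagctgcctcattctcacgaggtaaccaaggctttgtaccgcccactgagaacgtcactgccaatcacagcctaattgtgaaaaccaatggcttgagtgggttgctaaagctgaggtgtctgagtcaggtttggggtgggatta
The match begins 40 bases before the start in Trem2, 164 in Ctss, 96 in Clec7a and 225 in Cd68. Ctss and Cd68 each hold a second match within the 50 bases after the start, which are not shown.

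Defining markers of the cells were present throughout: 19 of 21 identity genes and 9 of 16 activation genes had an FPKM of at least 1 in all 18 libraries. For testing, a gene had to reach an FPKM of 1 in at least 3 of the 18 libraries, which 13487 genes did, among them all 21 identity and 14 activation genes. Itgax and Cybb were too low to test. Clec7a, Cd84, Cst7 and Lpl reached an FPKM of 1 in transgenic libraries only, so they entered the tests through the group in which they were high. Read counts are unknown, and summed FPKM lay between 389248 and 441509 per library. Some libraries stood apart. Choroid plexus genes were low in the transgenic week 5 replicates 1 and 2 and the transgenic week 28 replicate 3, with a mean log2 level of 1.30, 1.18 and 1.53, against 2.88 to 4.41 in the other 15. In 3 transgenic libraries, week 5 replicate 1, week 12 replicate 2 and week 28 replicate 1, both Xist (at least 1 FPKM) and the Y-linked Ddx3y (at least 0.5 FPKM) were present. By these genes the sexes were mixed in every group. Ddx3y exceeded Xist in transgenic week 5 replicate 2, week 12 replicate 3 and week 28 replicate 1. The same held in Cck-/- replicates 2 and 3 of weeks 5 and 12 and replicate 1 of week 28. At weeks 5 and 12 sex and genotype were therefore not balanced. Cck itself stood at 98.1 ± 15.6 FPKM in transgenic and 20.8 ± 4.51 FPKM in Cck-/- libraries of week 5 (mean ± SD, n = 3), so at that age what goes with the transgene and what goes with the level of Cck cannot be told apart.

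At week 28 the microglia genes stood higher in transgenic than in Cck-/- cerebella. Of the 35 tested, 18 were higher and 0 lower (limma, adjusted p under 0.05), against 4.54% of all 13487 genes called higher and 6.13% lower. They were 9 of 21 identity and 9 of 14 activation genes. Without the 4 that entered through transgenic libraries the counts were 14 of 31 in all and 5 of 10 among activation genes. The median log2 fold change was 0.45 for the identity and 0.63 for the activation genes (0.55 without those 4), against 0.0046 for all genes tested. All but Gpnmb of the 35 had a positive sign. In whole tissue, more microglia, more RNA of these genes in each microglial cell and RNA of the same genes from other cells cannot be told apart.

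**Figure D1:**
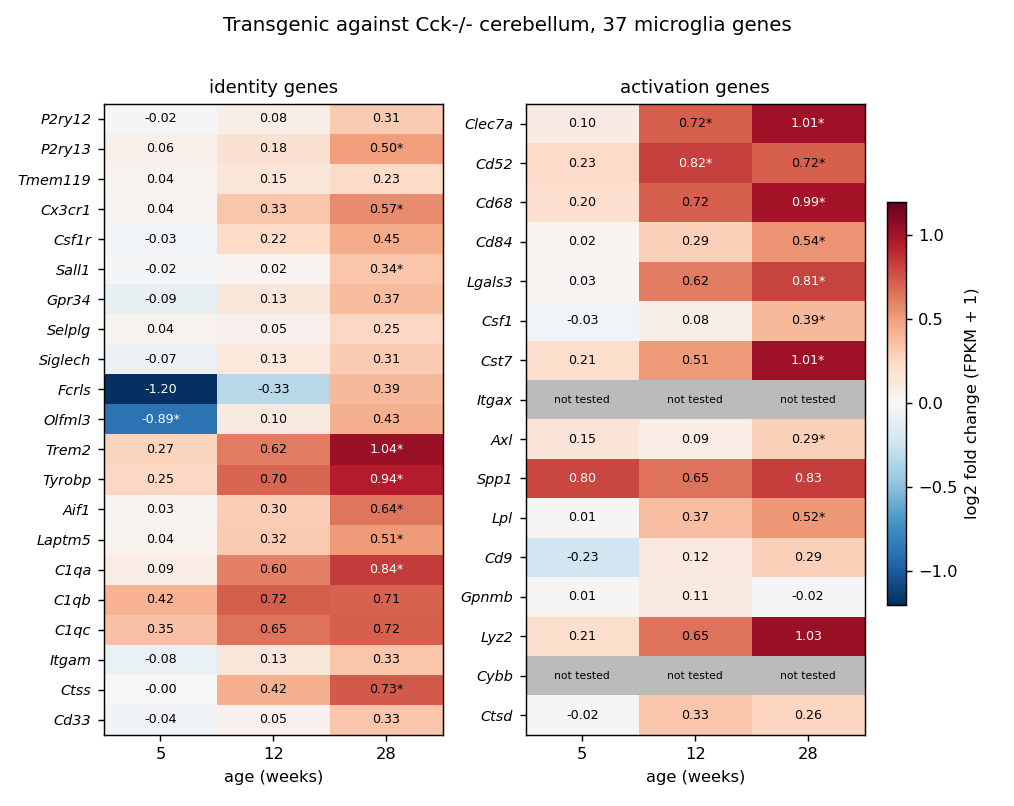
Log2 fold change (log2(FPKM + 1), transgenic minus Cck-/-) of each identity gene (left) and activation gene (right) at weeks 5, 12 and 28; an asterisk marks an adjusted p under 0.05 by limma, and grey cells were not tested. Red deepens with age in most rows, with 1 asterisk at week 5 (Olfml3, lower), 2 at week 12 and 18 at week 28.

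The receptor Trem2 and its adaptor Tyrobp had the largest log2 differences of the called identity genes. Trem2 (chromosome 17, 48346401 to 48352276, mm10) stood at 12.7, 18.1 and 10.2 FPKM in the transgenic libraries, against 7.04, 5.24 and 5.76 FPKM in the Cck-/- libraries. The lowest transgenic library was above the highest Cck-/- library, and the difference passed the test (log2 fold change 1.04, SE 0.21, adjusted p = 0.00503; limma). Tyrobp (chromosome 7, 30413788 to 30417579) stood at 37, 53.1 and 34.5 FPKM in the transgenic libraries, against 25.4, 19.2 and 18.4 FPKM in the Cck-/- libraries. Here too the groups did not overlap (log2 fold change 0.94, SE 0.19, adjusted p = 0.00516; limma). Both calls held when any 1 library was left out.

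The C1q chains of complement and the protease cathepsin S had smaller log2 differences than Trem2 and Tyrobp. C1qa, a chain of C1q, was at 38, 50.9 and 33.2 FPKM in the transgenic libraries, against 26.4, 22.5 and 17.9 FPKM in the Cck-/- libraries. Its groups did not overlap and it was called (log2 fold change 0.84, SE 0.22, adjusted p = 0.0249; limma). The other 2 chains, C1qb and C1qc, differed by 0.71 (SE 0.24, adjusted p = 0.0751) and 0.72 (SE 0.23, adjusted p = 0.0599) and were not called by limma. For C1qb, values were 40.9, 53.3 and 29.1 FPKM in the transgenic libraries, against 31.4, 20.9 and 21 FPKM in the Cck-/- libraries. The transgenic replicate 3 lay below the highest Cck-/- library, and the same held for C1qc. Ctss (chromosome 3, 95526786 to 95556405), which encodes cathepsin S, was the most abundant identity gene of week 28, at 71.4, 89.6 and 57.8 FPKM in the transgenic libraries, against 52.5, 41.4 and 36.2 FPKM in the Cck-/- libraries. The 2 groups were separate and it rose (log2 fold change 0.73, SE 0.18, adjusted p = 0.0154; limma).

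Among surface receptors of resting microglia the differences were smaller. Cx3cr1, the fractalkine receptor, was at 11.5, 14.1 and 9.45 FPKM in the transgenic libraries, against 9.68, 6.96 and 6.16 FPKM in the Cck-/- libraries. It was called (log2 fold change 0.57, SE 0.15, adjusted p = 0.0245; limma), although the lowest transgenic library lay just below the highest Cck-/- library. P2ry13, a nucleotide receptor, was at 4.51, 5.23 and 3.84 FPKM in the transgenic libraries, against 3.51, 2.9 and 2.31 FPKM in the Cck-/- libraries, with no overlap (log2 fold change 0.50, SE 0.11, adjusted p = 0.0109; limma). P2ry12, its neighbour on chromosome 3 and the standard marker of resting microglia, was at 9.61, 11.7 and 8.59 FPKM in the transgenic libraries, against 10.4, 7.03 and 6.43 FPKM in the Cck-/- libraries. The highest Cck-/- library exceeded 2 of the transgenic ones, and P2ry12 was not called (log2 fold change 0.31, SE 0.14, adjusted p = 0.162; limma). Csf1r, the CSF1 receptor, was at 18.6, 21.3 and 16.5 FPKM in the transgenic libraries, against 17.3, 12.9 and 11 FPKM in the Cck-/- libraries, and its difference was not called either (log2 fold change 0.45, SE 0.15, adjusted p = 0.0633; limma). Tmem119, a microglial membrane protein, had the smallest difference of the 21 identity genes, 0.23 (SE 0.14, adjusted p = 0.346) by limma.

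The remaining called identity genes have roles inside the cell. Aif1, which encodes the actin-binding protein IBA1 used to stain microglia, was at 4.35, 4.82 and 3.63 FPKM in the transgenic libraries, against 3.33, 2.22 and 1.74 FPKM in the Cck-/- libraries (log2 fold change 0.64, SE 0.14, adjusted p = 0.00983; limma). Laptm5, a lysosomal membrane protein of blood and microglial cells, was at 12.9, 16.3 and 10.6 FPKM in the transgenic libraries, against 10.8, 7.97 and 8.22 FPKM in the Cck-/- libraries (log2 fold change 0.51, SE 0.14, adjusted p = 0.0273; limma). Sall1, a transcription factor that marks microglia among brain macrophages, was at 3.65, 4.65 and 3.32 FPKM in the transgenic libraries, against 3.09, 2.86 and 2.57 FPKM in the Cck-/- libraries (log2 fold change 0.34, SE 0.092, adjusted p = 0.0298; limma). The groups were separate for Aif1 and Sall1, and for Laptm5 1 transgenic library fell within the Cck-/- range. Gpr34, Selplg, Siglech, Fcrls, Olfml3, Itgam and Cd33 were not called, with log2 differences from 0.25 (Selplg) to 0.43 (Olfml3).

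Activation genes at a low level in Cck-/- cerebella had the widest ratios at week 28. Clec7a (chromosome 6, 129461591 to 129472777), the receptor dectin-1, stood at 2.01, 2.98 and 1.7 FPKM in the transgenic libraries, against 0.687, 0.537 and 0.518 FPKM in the Cck-/- libraries. Its group mean was 3.84 times that of Cck-/- libraries (log2 fold change 1.01, SE 0.13, adjusted p = 0.000136; limma). Cst7, which encodes cystatin F, an inhibitor of lysosomal proteases, was at 1.89, 1.91 and 0.617 FPKM in the transgenic libraries, against 0.202, 0.0887 and 0.266 FPKM in the Cck-/- libraries. The third transgenic library was well below the other 2, yet the groups did not overlap and Cst7 was called (log2 fold change 1.01, SE 0.22, adjusted p = 0.00738; limma). Itgax, the integrin CD11c, was below the level for testing in most libraries, at 0.719, 1.18 and 0.646 FPKM in the transgenic libraries, against 0.149, 0.0709 and 0.116 FPKM in the Cck-/- libraries, and its groups were separate as well. With no filter on low values its log2 fold change was 0.72 (SE 0.095, adjusted p = 0.000379; limma).

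Lysosomal and secreted activation products followed. Cd68 (chromosome 11, 69664213 to 69666170), a lysosomal glycoprotein of phagocytes, was at 9.0, 10.9 and 7.63 FPKM in the transgenic libraries, against 5.77, 3.36 and 3.4 FPKM in the Cck-/- libraries (log2 fold change 0.99, SE 0.20, adjusted p = 0.00433; limma). Lgals3, which encodes galectin-3, was at 4.82, 5.94 and 4.03 FPKM in the transgenic libraries, against 2.74, 2.54 and 1.87 FPKM in the Cck-/- libraries (log2 fold change 0.81, SE 0.17, adjusted p = 0.00613; limma). Lpl, lipoprotein lipase, was at 1.02, 1.37 and 1.27 FPKM in the transgenic libraries, against 0.703, 0.462 and 0.466 FPKM in the Cck-/- libraries (log2 fold change 0.52, SE 0.13, adjusted p = 0.0153; limma). In all 3 genes every transgenic library stood above every Cck-/- library. Cybb, a subunit of the phagocyte NADPH oxidase, stayed under 1 FPKM in all 18 libraries, between 0.161 and 0.794.

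Surface and growth factor genes among the activation genes were called as well. Cd52, a short surface glycoprotein of leukocytes, was at 6.61, 9.34 and 5.97 FPKM in the transgenic libraries, against 3.93, 4.31 and 3.72 FPKM in the Cck-/- libraries (log2 fold change 0.72, SE 0.18, adjusted p = 0.019; limma); its exons overlap those of Crybg2 on the other strand, and the strand used in counting is not stated. Cd84, a receptor of the SLAM family, was at 1.58, 1.93 and 1.56 FPKM in the transgenic libraries, against 0.993, 0.737 and 0.831 FPKM in the Cck-/- libraries (log2 fold change 0.54, SE 0.11, adjusted p = 0.00493; limma). Csf1, a ligand of Csf1r, was at 9.92, 9.9 and 8.15 FPKM in the transgenic libraries, against 7.21, 6.84 and 6.56 FPKM in the Cck-/- libraries (log2 fold change 0.39, SE 0.081, adjusted p = 0.00645; limma). Cd52, Cd84 and Csf1 did not overlap between the groups. Axl, a receptor that binds dying cells through Gas6, was at 14, 14.5 and 12.6 FPKM in the transgenic libraries, against 13.1, 9.97 and 10.2 FPKM in the Cck-/- libraries (log2 fold change 0.29, SE 0.082, adjusted p = 0.0359; limma), and 1 transgenic library fell below the highest Cck-/- library.

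The 4 most abundant activation genes, and Gpnmb, were not called at week 28. Lyz2, lysozyme, was at 34.7, 43.7 and 24.5 FPKM in the transgenic libraries, against 26.3, 11.6 and 12.7 FPKM in the Cck-/- libraries; its log2 fold change of 1.03 matched that of Trem2 with a wider SE of 0.32 (adjusted p = 0.0542; limma), and reads may be shared with the near-identical Lyz1. Spp1, osteopontin, was at 34.7, 27.8 and 22.4 FPKM in the transgenic libraries, against 16.8, 16.3 and 12.9 FPKM in the Cck-/- libraries, separate groups with an adjusted p of 0.17 by limma. Ctsd, which encodes cathepsin D and is used by many brain cells, was at 261, 278 and 229 FPKM in the transgenic libraries, against 226, 199.7 and 215 FPKM in the Cck-/- libraries (log2 fold change 0.26, SE 0.10, adjusted p = 0.103; limma). Cd9, a tetraspanin also made by other glia, differed by 0.29 (SE 0.14, adjusted p = 0.208) and Gpnmb, a lysosomal glycoprotein, by -0.019 (SE 0.11, adjusted p = 0.936) in limma. Gpnmb was at 1.27, 0.966 and 0.87 FPKM in the transgenic libraries, against 1.18, 1.17 and 0.843 FPKM in the Cck-/- libraries, and the 2 ranges overlapped.

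**Figure D2:**
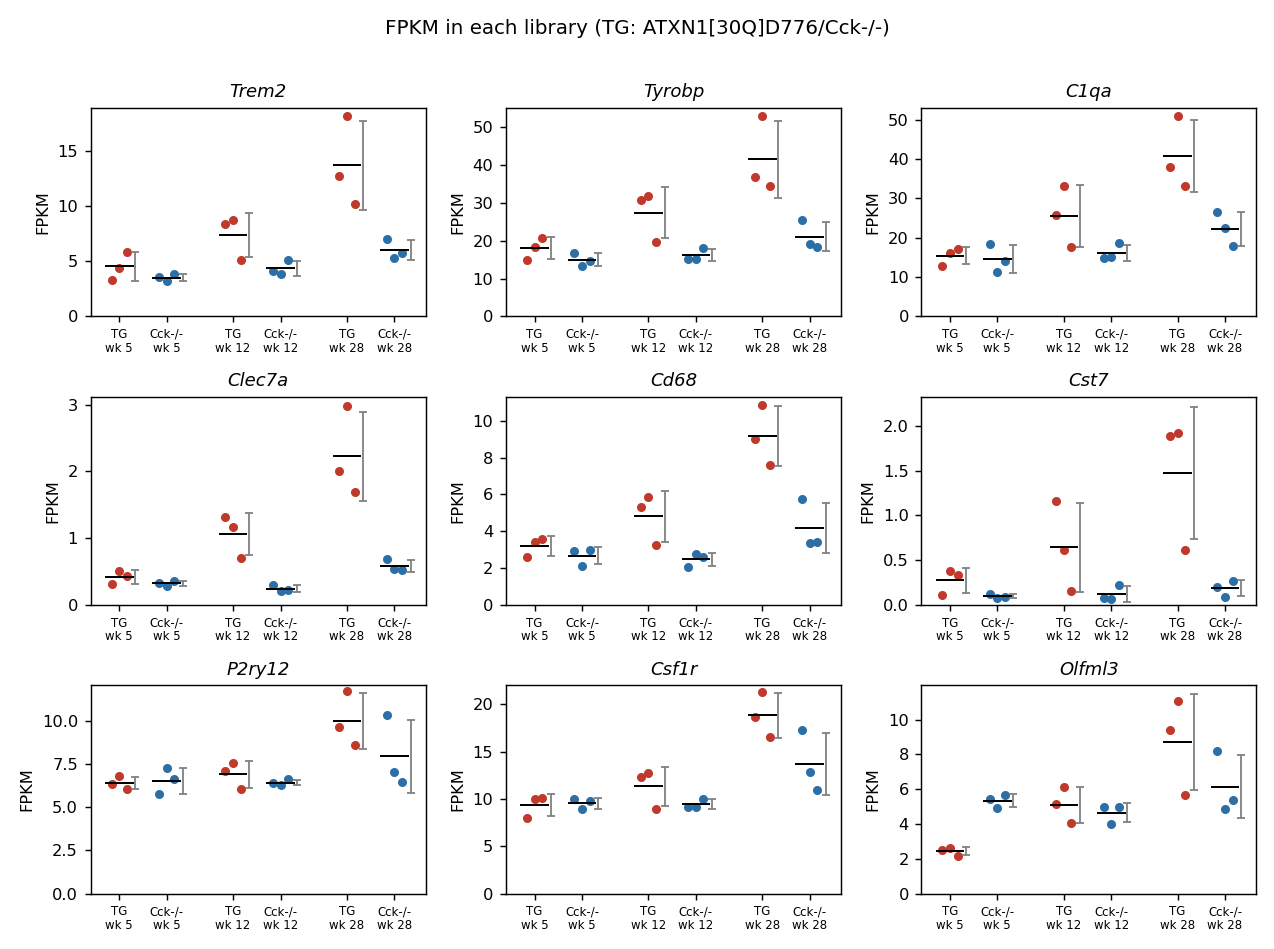
FPKM of 9 members in each library (points) by genotype and age, transgenic (TG, red) left of Cck-/- (blue), with the group mean (black line) and ± SD (grey bar, n = 3). Trem2, Tyrobp, Clec7a, Cd68 and Cst7 stand apart from Cck-/- at week 28, whereas P2ry12 and Csf1r overlap and Olfml3 is lower in transgenic libraries at week 5.

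Of the 35 tested members, 17 had every transgenic library above every Cck-/- library at week 28, against 13.2% of all genes tested, and 0 had the reverse (12.9% of all genes). With Itgax and Cybb these were 19 of 37, 7 identity and 12 activation genes. Clec7a, Cd84, Cst7 and Lpl, which entered the tests through transgenic libraries, were among the 17. The filter thus favoured their separation. Some libraries of week 28 kept the same place in their group for nearly all members. Transgenic week 28 replicate 2 was the highest of its group for 33 of 37 members and replicate 3 the lowest for 36, and Cck-/- week 28 replicate 1 was the highest of its group for 35. The lowest of that Cck-/- group was replicate 3 for 22 members and replicate 2 for 15. Averaged over the 21 identity genes, the mean log2(FPKM + 1) was 3.51, 3.77 and 3.19 in the transgenic and 3.26, 2.88 and 2.78 in the Cck-/- libraries, which overlap. Over the 16 activation genes it was 3.06, 3.20 and 2.83 in the transgenic and 2.60, 2.35 and 2.33 in the Cck-/- libraries, which do not.

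Genes of other cells differed as well. Purkinje cell genes, of which 10 of 10 listed were lower in transgenic libraries at week 28, had a mean log2 level of 6.46, 6.17 and 7.03 in the transgenic and 7.95, 7.93 and 7.91 in the Cck-/- libraries. Within the transgenic group, the library with the most microglial RNA thus had the least Purkinje cell RNA, and the library with the least microglial RNA had the most. In the Cck-/- group the 2 lists had the same order instead. There replicate 1 was the highest and replicate 3 the lowest in identity genes (3.26, 2.88 and 2.78) and in Purkinje cell genes. These orders of 3 libraries were not tested. The Cck-/- replicate 1, high in microglia genes, was also high in genes of border macrophages (1.14, against 0.67 and 0.68 in the other 2) and of red blood cells (6.97, against 5.37 and 3.39). Of 10 astrocyte and Bergmann glia genes, 4 were called higher and 4 lower in transgenic libraries at week 28, with no shared direction. Among the 4 higher, Gfap, a filament protein of astrocytes, averaged 260 ± 72.9 FPKM in transgenic and 95.5 ± 33.9 FPKM in Cck-/- libraries, and the water channel Aqp4 222 ± 43.3 FPKM in transgenic and 107 ± 15.8 FPKM in Cck-/- libraries (SD, n = 3). The 4 lower were Slc1a3, Fabp7, Gdf10 and Hopx. Slc1a3 averaged 217 ± 50.8 FPKM in transgenic and 353 ± 19.8 FPKM in Cck-/- libraries. For Fabp7 these were 44.1 ± 8.7 and 69.9 ± 13.9 FPKM (SD, n = 3). Of 10 oligodendrocyte genes, 3 were called higher (Mbp, Cldn11 and Ermn) and all 10 had a positive sign, with a median log2 difference of 0.32. Their mean log2 level was 6.65 to 6.81 in the transgenic and 6.21 to 6.64 in the Cck-/- libraries. Of 10 meninges genes 0 were called, all 10 had a positive sign (median 0.28), and their mean log2 level, 3.29 to 3.69 in the transgenic and 2.93 to 3.88 in the Cck-/- libraries, was highest in Cck-/- replicate 1. The part of these levels in the microglial differences was not tested.

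Border macrophage and white blood cell genes were low, and red blood cell genes were not. Border macrophage markers such as Mrc1 and Lyve1 summed to 8.02 to 9.95 FPKM in transgenic and 6.40 to 13.3 FPKM in Cck-/- libraries of week 28. Of 10 listed, 4 could be tested, 0 were called between genotypes at any age and 0 were at 0 FPKM. Markers of monocytes, neutrophils and lymphocytes summed to 4.66 to 15.6 FPKM in transgenic and 4.61 to 26.4 FPKM in Cck-/- libraries. Of these 12 genes, 3 could be tested and 0 were called; Cd3e was at 0 in 2 of the 18 libraries and Cd8a in 1. The 5 red blood cell genes summed to 220 to 333 FPKM in transgenic and 193 to 1238 FPKM in Cck-/- libraries, and 0 were called. Over the same libraries the 21 identity genes summed to 277 to 441 FPKM in transgenic and 183 to 266 FPKM in Cck-/- cerebella.

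**Figure D3:**
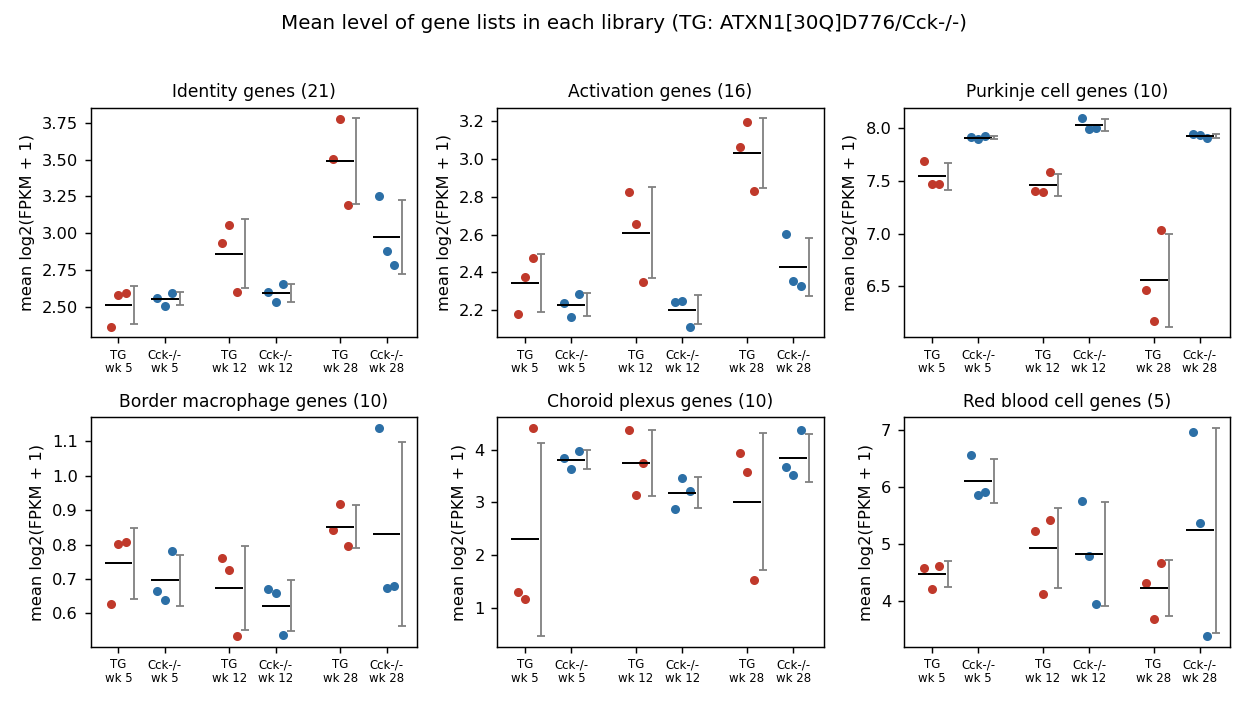
Mean log2(FPKM + 1) of 6 gene lists in each library (points), transgenic (TG, red) left of Cck-/- (blue), with the group mean (black line) and ± SD (grey bar, n = 3); axes do not start at 0. Both microglia lists are highest in the transgenic week 28 group, where Purkinje cell genes are lowest, and choroid plexus genes are low in 3 transgenic libraries.

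The count of members called at week 28 depended on single libraries. It was 7 without transgenic replicate 2, 11 without transgenic replicate 1, 9 without Cck-/- replicate 3, 11 without Cck-/- replicate 2 and 29 without Cck-/- replicate 1. Cd68, Cd84, Clec7a, Csf1, Lgals3, Trem2 and Tyrobp stayed called whichever library was left out. Cst7 stayed called in the 15 such fits that tested it. In the others, among them that without transgenic replicate 2, Cst7 fell under the level for testing. Aif1, Axl, C1qa, Cd52, Ctss, Cx3cr1, Laptm5, Lpl, P2ry13 and Sall1 were lost without transgenic replicate 2, and some of them without others. Without the 3 libraries low in choroid plexus genes, 24 members were called, and without the 3 that held both Xist and Ddx3y, 12. Calls over all genes moved with the setting as well, from 341 to 5835 over all alternatives, against 1439 with all libraries kept. Shifts in these counts are therefore not read as particular to the members.

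To set members against the resting microglial signal of the same library, each was divided by the geometric mean FPKM of 8 surface genes (P2ry12, P2ry13, Tmem119, Cx3cr1, Csf1r, Gpr34, Selplg and Siglech). This denominator was chosen after the values were seen, and the ratios are a description with no test. The geometric mean itself was 7.48 ± 1.34 FPKM in transgenic and 5.54 ± 1.28 FPKM in Cck-/- libraries at week 28 (SD, n = 3), and its groups overlapped. At that age 9 of 16 activation and 5 of the other 13 identity genes had ratios that were higher in every transgenic library. Over tested members these were 8 of 14 and 5 of 13, against 0.63% of all 13487 genes with ratios higher and 17% with ratios lower in every transgenic library. Clec7a, Cd84, Cst7 and Lpl, which entered the tests through transgenic libraries, were among the 8, so the filter favoured their separation. The larger denominator in transgenic libraries lowers the ratio of any gene that did not rise, so the background leans to lower.

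The spread between libraries was narrow on this scale for several genes. Cd68 had ratios of 1.25, 1.22 and 1.21 in the transgenic libraries, against 0.826, 0.654 and 0.753 in the Cck-/- libraries. Clec7a had ratios of 0.279, 0.333 and 0.269 in the transgenic libraries, against 0.0984, 0.105 and 0.115 in the Cck-/- libraries. In both genes the 3 transgenic values lay close together, although their FPKM had differed. Trem2 had ratios of 1.76, 2.02 and 1.62 in the transgenic libraries, against 1.01, 1.02 and 1.27 in the Cck-/- libraries, and Tyrobp had 5.15, 5.94 and 5.46 in the transgenic libraries, against 3.64, 3.74 and 4.08 in the Cck-/- libraries. The C1qa and Ctss ratios were 1.34 and 1.23 times as high in the transgenic group, with no overlap. Sall1 and Itgam, by contrast, had ratios 0.991 and 0.998 times those of Cck-/- libraries: Sall1 was at 0.508, 0.52 and 0.526 in the transgenic libraries, against 0.443, 0.557 and 0.568 in the Cck-/- libraries. These 2 identity genes differed from Cck-/- by about as much as the 8 surface genes did.

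**Figure D4:**
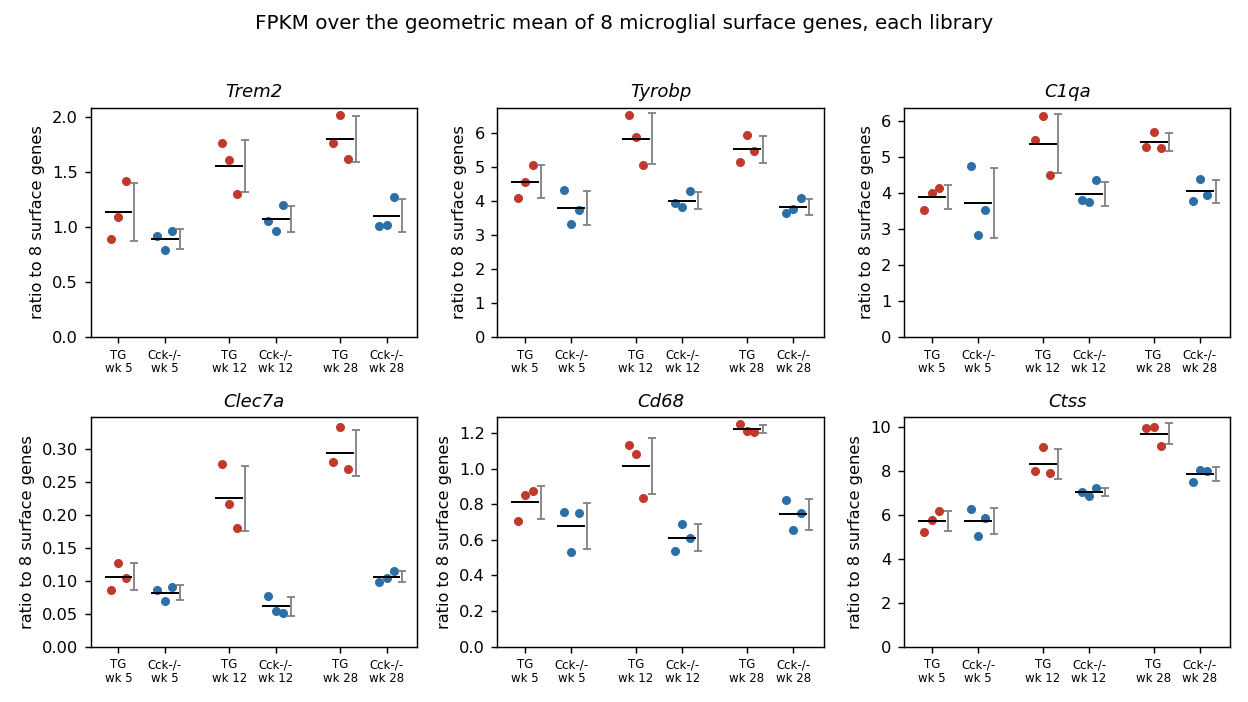
FPKM of 6 members divided by the geometric mean FPKM of 8 microglial surface genes (a ratio without unit) in each library (points), transgenic (TG, red) left of Cck-/- (blue), with the group mean (black line) and ± SD (grey bar, n = 3). At weeks 12 and 28 the transgenic points of all 6 genes lie above those of Cck-/-, and at week 5 they overlap.

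At week 12 the same direction was present with fewer calls. Of 35 members, 2 were higher and 0 lower by limma, against 0.282% of all genes called higher and 1.08% lower. Both are activation genes, and without the 4 that entered through transgenic libraries, Clec7a among them, the count was 1 of 31. Clec7a stood at 1.31, 1.17 and 0.70 FPKM in the transgenic libraries, against 0.299, 0.215 and 0.219 FPKM in the Cck-/- libraries (log2 fold change 0.72, SE 0.13, adjusted p = 0.011; limma). Cd52 stood at 4.5, 6.13 and 3.58 FPKM in the transgenic libraries, against 2.19, 2.69 and 1.77 FPKM in the Cck-/- libraries (log2 fold change 0.82, SE 0.18, adjusted p = 0.033; limma). Neither gene overlapped between groups. Both calls were lost without transgenic replicate 2 or without Cck-/- replicate 2, and that of Cd52 also without transgenic replicate 1 or Cck-/- replicates 1 or 3. The Cd52 call was lost with sex or choroid plexus level as a covariate too. The median log2 fold change was 0.18 for identity and 0.44 for activation genes, against 0.0023 for all genes.

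Several genes that rose at week 28 already stood higher at week 12 without passing the test. Tyrobp was at 30.9, 31.8 and 19.6 FPKM in the transgenic libraries, against 15.3, 15.2 and 18.2 FPKM in the Cck-/- libraries, separate groups with a log2 difference of 0.70 (SE 0.19, adjusted p = 0.0903) in limma. Cd68 was at 5.35, 5.86 and 3.24 FPKM in the transgenic libraries, against 2.08, 2.77 and 2.59 FPKM in the Cck-/- libraries, also separate, with 0.72 (SE 0.20, adjusted p = 0.0921). Lgals3, with 3.97, 2.58 and 2.51 FPKM in the transgenic libraries, against 1.72, 1.77 and 1.27 FPKM in the Cck-/- libraries, differed by 0.62 (SE 0.17, adjusted p = 0.0855). In each of these genes the third transgenic library was the lowest of its group. That library, transgenic week 12 replicate 3, was the lowest of its group for 34 of 37 members, and its mean Purkinje level was 7.58, against 7.41 and 7.40 in the other 2. Unlike in those 2, its Ddx3y exceeded its Xist (25 against 0.0884 FPKM). The part of sex in its low place was not tested. Without that library 4 members were called.

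No overlap between groups was seen for 14 of 37 members at week 12, all higher in transgenic libraries, 5 identity and 9 activation genes (background 7.95% of tested genes higher and 8.74% lower with no overlap). The 14 include Itgax and Cybb, which were not tested. They also include Clec7a, Cd84 and Lpl, which entered the tests through transgenic libraries, so the filter favoured their separation. As ratios to the 8 surface genes, 8 of 16 activation and 7 of the other 13 identity genes were separate and higher, Trem2, Tyrobp, Laptm5, the 3 C1q chains and Ctss among them (6 of 14 and 7 of 13 tested members, against 0.823% of all genes higher and 8.31% lower). Clec7a, Cd84 and Lpl were among these 6 as well. The 8 surface genes had a geometric mean of 4.67 ± 0.764 FPKM in transgenic and 4.04 ± 0.192 FPKM in Cck-/- libraries (SD, n = 3), which overlap. P2ry12, at 7.09, 7.54 and 6.04 FPKM in the transgenic libraries, against 6.4, 6.27 and 6.6 FPKM in the Cck-/- libraries, differed by 0.084 (SE 0.14, adjusted p = 0.882) in limma.

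At week 5 most members had similar levels in both genotypes, and 2 identity genes stood lower. The median log2 fold change over the 35 tested was 0.034, against 0.00034 for all genes, and 0 members were called higher and 1 lower by limma (background 3.3% higher and 4.37% lower). The 1 was Olfml3, a secreted olfactomedin-like protein of microglia, at 2.5, 2.62 and 2.16 FPKM in the transgenic libraries, against 5.46, 4.9 and 5.67 FPKM in the Cck-/- libraries. Its transgenic libraries held less than every Cck-/- library (log2 fold change -0.89, SE 0.20, adjusted p = 0.013; limma), and the call was lost without Cck-/- replicate 3 (adjusted p = 0.0560) and with the choroid plexus level as a covariate (adjusted p = 0.0526). Choroid plexus genes were lower in the transgenic libraries of that age for 10 of 10 genes (median log2 difference -1.30, 0 called); without the 3 libraries low in them Olfml3 stayed called (adjusted p = 0.0419; limma). Fcrls, an Fc receptor-like gene of mouse microglia, was at 1.09, 1.45 and 1.3 FPKM in the transgenic libraries, against 3.93, 3.92 and 4.86 FPKM in the Cck-/- libraries. It was separate in the same direction, with a log2 difference of -1.20 (SE 0.40, adjusted p = 0.0854) that limma did not call. At later ages the Fcrls values of 1 group spread widely, for example 4.98, 4.2 and 0.679 FPKM in the transgenic libraries of week 28.

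Transgenic levels of most other identity genes were near those of Cck-/- libraries at week 5. The group means of C1qb, C1qc and Trem2 were 1.40, 1.33 and 1.29 times those of Cck-/- libraries, with overlapping groups. Of all 21 identity genes, 11 had a positive sign. P2ry12 was at 6.35, 6.78 and 6.07 FPKM in the transgenic libraries, against 5.75, 7.26 and 6.6 FPKM in the Cck-/- libraries, and Trem2 at 3.28, 4.41 and 5.83 FPKM in the transgenic libraries, against 3.55, 3.15 and 3.81 FPKM in the Cck-/- libraries. The transgenic replicate 1 was the lowest of its group for 31 of 37 members. Among activation genes, Axl and Itgax did not overlap between groups, both higher in transgenic libraries, against 15.1% of all genes tested; Olfml3 and Fcrls were the 2 separate and lower, against 16% of all genes. Axl was at 11, 11.6 and 11.4 FPKM in the transgenic libraries, against 9.98, 10.4 and 9.97 FPKM in the Cck-/- libraries, a log2 difference of 0.15 (SE 0.082, adjusted p = 0.29) in limma. Spp1, at 21.6, 31.3 and 41.9 FPKM in the transgenic libraries, against 13.5, 23.3 and 15.8 FPKM in the Cck-/- libraries, had the largest difference among activation genes, 0.80 (SE 0.37, adjusted p = 0.216), and was not called by limma.

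Whether the genotype difference changed with age was tested as an interaction. Between weeks 5 and 28 it grew for 2 of 35 members by limma, against 1.73% of all genes called higher and 1.92% lower. Without the 4 members that entered through transgenic libraries the count was 1 of 31. For Clec7a, which is one of those 4, the difference was 0.91 greater at week 28 (SE 0.18, adjusted p = 0.0217; limma). For Olfml3 it was 1.31 greater (SE 0.28, adjusted p = 0.0244; limma), since this gene was lower in transgenic libraries at week 5 and not at week 28. Both calls were lost without the 3 libraries that held Xist and Ddx3y, without Cck-/- week 5 replicate 3 and without Cck-/- week 28 replicate 2. That of Olfml3 was also lost without Cck-/- week 5 replicate 1 or transgenic week 28 replicates 1 or 2. The count was 8 without transgenic week 28 replicate 3 and 9 without Cck-/- week 28 replicate 1. Unadjusted, 23 of the 35 had a p under 0.05. Between weeks 12 and 28 the interaction was called for 0 of 35 members and 0% of genes by limma, with 2 members (Sall1 and Csf1) and 1365 of 13487 genes at an unadjusted p under 0.05. The larger count of members called at week 28 than at week 12 is therefore not shown to be a larger effect.

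Between weeks 12 and 28 most members rose in transgenic cerebella, and few passed the test in Cck-/- cerebella. In transgenic cerebella 25 of 35 rose and 0 fell by limma, 18 identity and 7 activation genes, against 10.2% of all genes called higher and 13.7% lower. The count was 12 without transgenic week 12 replicate 3 or transgenic week 28 replicate 2, and 16 without transgenic week 28 replicate 1. With all libraries kept, but without the 4 members that entered through transgenic libraries, it was 23 of 31. Those 23 include Cd33, which reached an FPKM of 1 in week 28 libraries only. Cd33 thus entered through the age at which it was high, and the filter favoured its rise. The median log2 change was 0.64 for the identity and 0.47 for the activation genes, against -0.0031 for all genes. In Cck-/- cerebella 5 of 35 rose and 0 fell (background 4.03% higher and 5.62% lower), and the median change was 0.39 for identity and 0.19 for activation genes. In the same comparison 1 of 4 tested border macrophage genes rose, Cbr2 (log2 fold change 0.56, SE 0.15, adjusted p = 0.0299; limma), with a median of 0.32 over the 4. Meninges genes had a positive sign for 9 of 10 and a median of 0.37, with 0 called, and the part of these cells in the Cck-/- changes was not tested. The difference between these changes is the interaction given above. These changes share the week 28 and week 12 libraries with the genotype comparisons, so their calls do not add independent evidence.

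Ctss had the largest rise of the identity genes in transgenic cerebella, log2 fold change 0.88, SE 0.18, adjusted p = 0.00318 by limma. At weeks 5, 12 and 28 it averaged 22.6 ± 3.14, 39.3 ± 9.41 and 73 ± 16 FPKM in transgenic libraries and 22.5 ± 2.0, 28.5 ± 1.97 and 43.4 ± 8.33 FPKM in Cck-/- libraries (SD, n = 3). Its library values at week 12 were 37.7, 49.3 and 30.7 FPKM in the transgenic libraries, against 27.3, 27.5 and 30.8 FPKM in the Cck-/- libraries. Lyz2 had the largest rise of the activation genes (log2 fold change 1.12, SE 0.32, adjusted p = 0.0217; limma). It averaged 11.3 ± 2.17, 15.7 ± 6.03 and 34.3 ± 9.65 FPKM at the 3 ages in transgenic libraries and 9.76 ± 2.7, 9.1 ± 1.47 and 16.9 ± 8.18 FPKM in Cck-/- libraries (SD, n = 3). Levels of both genes at week 28 were the highest of the 3 ages in each genotype. Lyz2 values at week 12 were 18.8, 19.5 and 8.71 FPKM in the transgenic libraries, against 8.69, 10.7 and 7.88 FPKM in the Cck-/- libraries.

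The 5 genes that rose in Cck-/- cerebella between weeks 12 and 28 were P2ry13, Cx3cr1, Laptm5, Cd52 and Itgam, a subunit of the complement receptor CR3. Cx3cr1 averaged 4.83 ± 0.336, 6.0 ± 1.2 and 11.7 ± 2.34 FPKM at weeks 5, 12 and 28 in transgenic libraries and 4.67 ± 0.178, 4.51 ± 0.236 and 7.6 ± 1.85 FPKM in Cck-/- libraries (SD, n = 3; Cck-/- change log2 fold change 0.62, SE 0.15, adjusted p = 0.0186, limma). All 5 calls were lost without Cck-/- week 28 replicate 1, the library high in border macrophage and blood genes. The count was 1 without Cck-/- week 12 replicate 1 or 3, and 2 without Cck-/- week 12 replicate 2 or week 28 replicate 2. C1qc had the largest log2 change of the identity genes, 0.63 (SE 0.23, adjusted p = 0.0968), and Lyz2 that of the activation genes, 0.74 (SE 0.32, adjusted p = 0.161), and limma called neither. C1qc stood at 26.8, 18.6 and 19.8 FPKM in the Cck-/- libraries of week 28, against 13.2, 11.9 and 15.6 FPKM in those of week 12.

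From week 5 to week 12, 0 of 35 members were called in either genotype by limma, against 0.593% of genes called higher and 0.601% lower in transgenic, and 5.29% higher and 6.53% lower in Cck-/- cerebella. Without 1 library up to 4 members were called in transgenic (transgenic week 28 replicate 2 left out) and 1 in Cck-/- cerebella (Cck-/- week 28 replicate 1 left out). At an unadjusted p under 0.05 there were 16 members in transgenic and 1 (Cd9, lower at week 12) in Cck-/- cerebella. In transgenic cerebella Olfml3 changed by 0.82 (SE 0.20, adjusted p = 0.0573) and Cd52 by 0.74 (SE 0.18, adjusted p = 0.0614) in limma, the largest of the identity and of the activation genes. Olfml3 was at 5.14, 6.13 and 4.05 FPKM in the transgenic libraries, against 4.96, 4.01 and 4.97 FPKM in the Cck-/- libraries at week 12, with overlapping groups. In Cck-/- cerebella Fcrls changed by -0.77 (SE 0.40, adjusted p = 0.24) and Cd9 by -0.37 (SE 0.14, adjusted p = 0.104) in limma. Fcrls was at 3.33, 1.08 and 0.58 FPKM in the transgenic libraries, against 3.07, 1.66 and 1.62 FPKM in the Cck-/- libraries at week 12, and Cd9 at 79.7, 64.8 and 59.3 FPKM in the transgenic libraries, against 61.2, 62.9 and 61.9 FPKM in the Cck-/- libraries.

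Further genes of microglial pathways were read at week 28 beside the members, where 4.54% of all genes were called higher and 6.13% lower. Of 5 tested complement genes, 3 rose and 0 fell by limma. C4b averaged 15.3 ± 4.39 FPKM in transgenic and 6.41 ± 2.18 FPKM in Cck-/- libraries (log2 fold change 1.14, SE 0.23, adjusted p = 0.00551; limma), and it is nearly identical to C4a, so reads may be shared. C3, the central complement protein, averaged 1.92 ± 0.569 FPKM in transgenic and 0.672 ± 0.443 FPKM in Cck-/- libraries (log2 fold change 0.82, SE 0.17, adjusted p = 0.00575; limma). Itgb2, the partner of Itgam in CR3, differed by 0.46 (SE 0.11, adjusted p = 0.0184). Of 16 tested lysosomal and disease-associated microglia genes, 4 rose and 0 fell. Apoe, the lipid carrier that astrocytes and microglia secrete, averaged 1540 ± 174 FPKM in transgenic and 1066 ± 117 FPKM in Cck-/- libraries (log2 fold change 0.53, SE 0.11, adjusted p = 0.00754; limma). Grn and Slc11a1, also called, differed by 0.25 and 0.43 on the log2 scale.

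Receptor and signalling lists held few calls, and single calls in lists of this size say nothing of the list. Of 9 tested Fc and pattern receptors, 3 rose and 0 fell by limma: Tlr3 by 0.49, Cd180 by 0.39 and Cd53 by 0.43 on the log2 scale. Of 8 tested microglial transcription factors and regulators, 1 rose and 1 fell by limma. The 1 that fell was Smad3 (log2 fold change -0.36, SE 0.093, adjusted p = 0.0219; limma). Smad3 averaged 12.6 ± 1.7 FPKM in transgenic and 16.4 ± 1.07 FPKM in Cck-/- libraries, and it is also made by neurons. In 6 tested partners of TREM2 and CSF1R, 1 rose, Apbb1ip, by 0.37 (SE 0.082, adjusted p = 0.00974). Of 5 tested chemokine and cytokine genes 1 rose, the receptor Il10ra, by 0.36 (SE 0.09, adjusted p = 0.0185). Of 12 interferon response genes 0 were called at any age. At week 12, 0 genes of these 7 lists were called, and at week 5 Maf and Apoe were higher and Lamp1 lower.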

How the data were processed

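Per the labels, RNA of FVB mouse cerebellum was isolated with TRIzol and RNeasy columns and made into TruSeq libraries. Reads were aligned to mm10 with TopHat2 2.0.11 and quantified with Cufflinks 2.2.1, per the submitters' processing notes. The authors deposited FPKM per gene symbol for 18 libraries together. Their annotation was not given in the sources used here, nor were the strand setting and the normalization method. A further 36 columns, of bounds, were not used. Without counts or depth, counting intervals could not be had.

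The 13487 genes with FPKM of at least 1 in at least 3 libraries entered limma (version 3.58.1; R 4.3.3 with data.table, version 1.17.8) on log2(FPKM + 1), with a mean-variance trend, 6 group means and 12 residual degrees of freedom. P-values are two-sided and adjusted by Benjamini and Hochberg over all genes within each of 9 comparisons, and a gene was called under 0.05. With 3 libraries against 3, an exact permutation test could not go below p = 0.1 for a single value. Every member may be named. Values of every library are given for members called in a genotype effect and for those with the largest change between ages among the identity or the activation genes, and of the other lists up to 4 called genes with the smallest p. Astrocyte and Bergmann glia genes called lower are named beside those called higher. The members and lists were chosen with earlier results of these data known. Alternatives covered a pseudocount of 0.1, a filter at mean FPKM 5 or none, 2 rescalings, robust fitting, library weights, only the groups compared, replicate blocks and each library left out. After seeing the data, fits without the doubted libraries or with sex or choroid plexus level as a covariate were added. The fit was tested on simulated data. Promoter windows are from RefSeq (GRCm38.p6) and exon overlaps from GENCODE M21. Besides Cd52, exons of Csf1r overlap those of Hmgxb3 on the other strand. Exons of Itgam and Ctsd overlap those of Gm49368 and Gm49369 on the same strand. Spp1, Cd9, Cx3cr1 and P2ry12 hold exon overlaps as well. P2ry12 and P2ry13 were deposited with the same chromosome span. The part of such overlaps in the levels was not tested. Figures were drawn with matplotlib 3.10.9 (Python 3.11.15, pandas 2.3.3). A few called genes of the further lists are counted but not reported here by name.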

Additional observations from a re-analysis of the deposited data

Results flagged for a closer look

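A genotype difference that changed with age by its own test was found for 2 members. For Clec7a the log2 difference between transgenic and Cck-/- libraries was 0.91 greater at week 28 than at week 5 (SE 0.18, adjusted p = 0.0217; limma), with every transgenic library of week 28 above every Cck-/- library. Clec7a reached an FPKM of 1 in 5 transgenic and 0 Cck-/- libraries, so it entered the test through the group in which it was high. For Olfml3 it was 1.31 greater (SE 0.28, adjusted p = 0.0244; limma), with lower values in all 3 transgenic libraries at week 5 and overlapping groups at week 28. Over the 30 alternatives of Clec7a and 31 of Olfml3 that gave a value, these differences ran from 0.75 to 1.46 and from 1.14 to 1.68, and the call was lost in 3 and 7 of them. Cck stood at 98.1 FPKM in transgenic and 20.8 FPKM in Cck-/- libraries of week 5, and its part in either result was not tested.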

How the results depend on the processing

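No member that was called changed sign under any alternative run: 1414 values of called members stayed called and 195 did not. The counts of members called moved by over 1.5 times as follows, and the cause was not tested except where named. With only the groups compared, which tested fewer members with fewer libraries, 2 were called at week 5, 0 at week 12, 3 at week 28, 1 for the interaction of weeks 5 and 28, 11 for transgenic and 0 for Cck-/- cerebella from week 12 to 28, and 3 for Cck-/- cerebella from week 5 to 12. Over all genes this setting called 341 at week 28, against 1439 in the main fit. With library weights the counts were 5, 1 and 33 at weeks 5, 12 and 28, 11 and 28 for the interactions of week 28 with weeks 12 and 5, 2 for transgenic and 2 for Cck-/- cerebella from week 5 to 12, and 15 for Cck-/- cerebella from week 12 to 28. Library weights raised the calls over all genes as well, to 5835 at week 28, against 1439 in the main fit. For those 2 interactions they gave 2344 and 4325 genes, against 0 and 492. At a mean FPKM of at least 5, which tests fewer members, they were 0 at week 12, 8 at week 28, 1 for the interaction of weeks 5 and 28, 1 and 14 for the 2 transgenic age changes and 3 for Cck-/- cerebella from week 12 to 28. With no filter, 1 was called at week 12 and 2 for Cck-/- cerebella from week 12 to 28; quantile normalization gave 3 for Cck-/- cerebella from week 12 to 28, a pseudocount of 0.1 gave 3 and median-ratio rescaling 1 for transgenic cerebella from week 5 to 12. Of the fits added after seeing the data, leaving out the libraries with Xist and Ddx3y gave 0 at week 12 and 0 for the interaction of weeks 5 and 28; the sex covariate gave 1 at week 12 and 3 for Cck-/- cerebella from week 12 to 28; and the choroid plexus covariate gave 0 at week 5, 1 at week 12 and 2 for Cck-/- cerebella from week 12 to 28.

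Without 1 library at a time the counts ran from 0 to 2 at week 5, 0 to 4 at week 12, 7 to 29 at week 28, 0 to 9 for the interaction of weeks 5 and 28 and 0 to 0 for that of weeks 12 and 28. They ran from 0 to 4 and 12 to 30 for transgenic cerebella from week 5 to 12 and 12 to 28, and from 0 to 1 and 0 to 7 for Cck-/- cerebella. Over all alternatives the calls over all genes moved too, from 341 to 5835 at week 28 and 59 to 323 at week 12. Shifts in the counts of members are therefore not read as particular to the members. With the replicate numbers as blocks, 1, 2 and 18 members were called at weeks 5, 12 and 28. Same-numbered libraries did not deviate together (correlations from -0.16 to 0.44, over 0.1 in 4 of 9 pairs), so the numbers are not taken to pair the samples. Depth is unknown, which limits what can be said of genes under 1 FPKM.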
